A study of Mus musculus with 27 samples.

Results

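The mouse immunoglobulin heavy chain locus holds an array of variable segments (*Ighv* genes), and 98 of these segments are described here. They are the genes with a symbol beginning with *Ighv*, found by matching Ensembl identifiers to the GRCm38 annotation (GENCODE release M21), that reached 20 or more counts summed over 27 mice. The count tables list 46078 genes, of which 185 are *Ighv* genes. Of the other *Ighv* genes, 37 held fewer than 20 counts each (219 in all) and 50 held 0. By count alone, *Ighv1-56* and *Ighv3-3* (21 counts each) lay just inside the minimum, and *Ighv1-30* (19 counts) and *Ighv1-49* (17 counts) just outside.

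A B lymphocyte makes its heavy chain gene by joining 1 variable segment to a diversity and a joining segment, so all transcripts of a clone carry the same *Ighv* segment. The joined segment sits upstream of a constant region, which is *Ighm* in naive B cells and *Igha* after the class switch to IgA. The gut wall is rich in plasma cells that secrete IgA, and their immunoglobulin mRNA is abundant enough to be read in RNA-Seq of whole tissue.

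RNA-Seq was carried out on scraped ileal epithelium from male C57BL/6 mice that were 56 d old at collection. The 9 groups of 3 mice received sesame oil vehicle or 1 of 8 doses of TCDD (0.01 and 0.03, then 0.1 and 0.3, then 1 and 3, and lastly 10 and 30 µg/kg) by gavage every 4 d for 28 d, and all dosed groups were compared with the same 3 vehicle mice. TCDD (2,3,7,8-tetrachlorodibenzo-*p*-dioxin) is a persistent ligand of the aryl hydrocarbon receptor (AhR), a transcription factor. The study's methods state that mice were co-housed, and the cage of each mouse is not given in the labels used here, so cage and dose could not be separated. Between 12.26 and 17.14 M counts fell on genes in each mouse. The library indexes were used once in 16 mice (vehicle to 0.3 µg/kg and 1 µg/kg replicate 1) and again in the other 11, and 1 µg/kg is the only dose that holds both. In the comparisons of 3, 10 and 30 µg/kg with vehicle, the effects of dose and of index use therefore cannot be told apart. Groups with the same index use can be compared without this limit. The scrapings held enterocyte transcripts (summed level of 7 markers 10050 to 11410 CPM in vehicle mice, CPM being counts scaled to a common library size with TMM factors) and those of 12 B cell markers (66.86 to 161.6 CPM), while the sum of 5 genes of V(D)J recombination never exceeded 0.554 CPM in vehicle mice or 0.696 CPM at 30 µg/kg.

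The 98 segments lie on the minus strand of chromosome 12 between 113578504 and 116000461 (GRCm38), within a stretch of 2.44 Mb. They belong to 15 families, the first number of each name, and family 1 gave 52 of them. The annotation classes 94 as functional variable genes (IG_V_gene) and 4 as pseudogenes, and those 4 (*Ighv1-25*, *Ighv1-33*, *Ighv1-2* and *Ighv1-83*) held 38 to 60 counts each. The 98 segments were closely related in sequence. Identity was taken over a window of 294 bases fixed near the 3′ end of each segment and compared without gaps. Segments of unlike length are out of register in it and can get a lower identity. The nearest other segment had a median identity of 95.2% (95 segments with a window, range 59.5 to 100%), and *Ighv1-62-2* and *Ighv1-71* were identical there. The sequences of 5 abundant segments of family 1 show how few bases separate such relatives. Each is given on the minus strand, 5′ to 3′, as in the GENCODE transcript, with capitals where it differs from *Ighv1-26*, the most abundant segment. *Ighv1-26* is at chr12:114788372-114788665, *Ighv1-22* at chr12:114746273-114746566, *Ighv1-19* at chr12:114708648-114708941, *Ighv1-39* at chr12:114914599-114914892 and *Ighv1-55* at chr12:115208095-115208388, all within coding exons. *Ighv1-22* and *Ighv1-19* each differed from *Ighv1-26* at 11 positions (96.3% identity), *Ighv1-39* at 22 (92.5%) and *Ighv1-55* at 40 (86.4%).

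Ighv1-26: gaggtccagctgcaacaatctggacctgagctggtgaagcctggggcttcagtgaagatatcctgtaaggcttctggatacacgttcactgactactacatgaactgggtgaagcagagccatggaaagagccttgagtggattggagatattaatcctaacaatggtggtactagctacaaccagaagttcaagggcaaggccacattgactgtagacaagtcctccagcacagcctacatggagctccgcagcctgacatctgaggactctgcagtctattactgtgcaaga
Ighv1-22: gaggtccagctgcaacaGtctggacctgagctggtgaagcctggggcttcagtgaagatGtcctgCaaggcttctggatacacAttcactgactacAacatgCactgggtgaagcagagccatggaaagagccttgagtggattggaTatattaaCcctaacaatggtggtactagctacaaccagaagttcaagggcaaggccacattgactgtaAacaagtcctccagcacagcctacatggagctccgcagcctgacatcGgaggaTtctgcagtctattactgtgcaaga
Ighv1-19: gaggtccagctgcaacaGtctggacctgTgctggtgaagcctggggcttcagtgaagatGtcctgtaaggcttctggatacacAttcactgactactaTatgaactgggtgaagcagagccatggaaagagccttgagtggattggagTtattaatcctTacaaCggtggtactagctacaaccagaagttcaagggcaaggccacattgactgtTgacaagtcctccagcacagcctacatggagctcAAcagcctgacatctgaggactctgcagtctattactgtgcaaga
Ighv1-39: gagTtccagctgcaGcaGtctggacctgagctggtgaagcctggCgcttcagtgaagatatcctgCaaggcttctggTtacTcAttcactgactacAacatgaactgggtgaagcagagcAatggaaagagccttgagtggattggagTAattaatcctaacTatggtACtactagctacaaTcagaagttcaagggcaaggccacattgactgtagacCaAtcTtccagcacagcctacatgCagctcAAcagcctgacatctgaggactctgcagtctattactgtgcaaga
Ighv1-55: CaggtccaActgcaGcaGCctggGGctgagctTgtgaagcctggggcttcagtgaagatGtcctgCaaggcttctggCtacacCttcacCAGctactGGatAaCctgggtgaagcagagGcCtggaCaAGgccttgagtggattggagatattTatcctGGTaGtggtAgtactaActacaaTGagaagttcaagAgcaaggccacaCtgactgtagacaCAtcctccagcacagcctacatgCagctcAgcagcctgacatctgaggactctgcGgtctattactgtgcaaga

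The next sequences are from another 2 families and from *Ighv1-12*, the segment with a difference from vehicle at the most doses below. Capitals mark the codon of the conserved cysteine that closes the framework before the diversity segment is joined. *Ighv3-6* is at chr12:114288154-114288447, *Ighv14-2* at chr12:113994469-113994762 and *Ighv1-12* at chr12:114615850-114616143, all on the minus strand of GRCm38.

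Ighv3-6: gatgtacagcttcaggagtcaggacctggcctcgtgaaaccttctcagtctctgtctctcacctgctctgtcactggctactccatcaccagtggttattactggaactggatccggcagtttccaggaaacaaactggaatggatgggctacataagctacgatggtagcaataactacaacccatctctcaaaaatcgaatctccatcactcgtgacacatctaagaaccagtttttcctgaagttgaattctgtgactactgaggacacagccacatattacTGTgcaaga
Ighv14-2: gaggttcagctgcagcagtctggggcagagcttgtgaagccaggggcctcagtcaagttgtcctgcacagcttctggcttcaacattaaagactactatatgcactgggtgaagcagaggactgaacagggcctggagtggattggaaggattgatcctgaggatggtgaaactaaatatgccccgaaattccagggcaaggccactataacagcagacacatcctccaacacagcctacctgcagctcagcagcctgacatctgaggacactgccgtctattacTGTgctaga
Ighv1-12: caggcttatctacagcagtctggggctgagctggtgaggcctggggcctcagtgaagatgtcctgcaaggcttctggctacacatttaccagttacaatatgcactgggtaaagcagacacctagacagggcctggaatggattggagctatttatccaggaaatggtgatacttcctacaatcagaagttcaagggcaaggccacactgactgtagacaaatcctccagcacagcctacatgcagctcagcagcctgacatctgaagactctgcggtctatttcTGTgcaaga

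Sequence sharing limits how exactly a read can be given to 1 segment. Of the windows of 50 bases in a segment's transcript, a median of 22.2% also occurred in a transcript of another gene, from none in 12 segments to 97.4% in *Ighv1-71*. In 10 segments more of the windows were shared than not. The form of the count tables is one in which reads aligned to several places are left out, so segments with many shared windows may be undercounted. Across the 98 segments the shared percentage and the total count had a Spearman correlation of -0.01, given as a description since segments share sequence and libraries.

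*Ighv* transcripts were most abundant in mice given vehicle or low doses of TCDD and least abundant at 10 and 30 µg/kg. The summed level of the 98 segments was 304.3, 243.7 and 214.1 CPM in the 3 vehicle mice, a mean of 254.0 ± 45.9 CPM (SD, n = 3). At 30 µg/kg it was 106.4, 55.69 and 114.9 CPM, a mean of 92.3 ± 32 CPM (SD, n = 3) and 2.75-fold below vehicle. At 10 µg/kg it was 100.4, 130.1 and 90.77 CPM, a mean of 107.1 ± 20.5 CPM (SD, n = 3) and 2.37-fold below vehicle. All mice of both doses lay below all vehicle mice, and the groups did not overlap. No test was made on this sum, because it is a score over a chosen set of genes. In scrapings of mixed cells, fewer cells of a type and less RNA per cell cannot be told apart.

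At 3 µg/kg the sums were closely spaced, at 173.1, 194.0 and 177.7 CPM (mean 181.6 ± 11.0 CPM, SD, n = 3), again below every vehicle mouse. At 1 µg/kg they were 225.1, 92.15 and 162.2 CPM, the widest relative spread of any group (coefficient of variation 41.6%). The first of these mice, the only one with a first-use index, lay within the vehicle range and the other 2 lay below it. From 0.01 to 0.3 µg/kg the group means were 279.5, 241.3, 230.6 and 232.5 CPM in order of rising dose, and single mice ranged from 162.6 to 336.6 CPM, overlapping vehicle at each dose. Over all 27 mice the sum spanned 6.04-fold. It was 162.6 to 336.6 CPM in the 16 mice with a first-use index and 55.69 to 194.0 CPM in the 11 with a second-use index. Within the second use alone, the 3 mice at 3 µg/kg were all above the 6 mice at 10 and 30 µg/kg. They were also above the 2 second-use mice at 1 µg/kg (92.15 and 162.2 CPM), so the sum did not fall steadily with dose there.

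**Figure D1:**
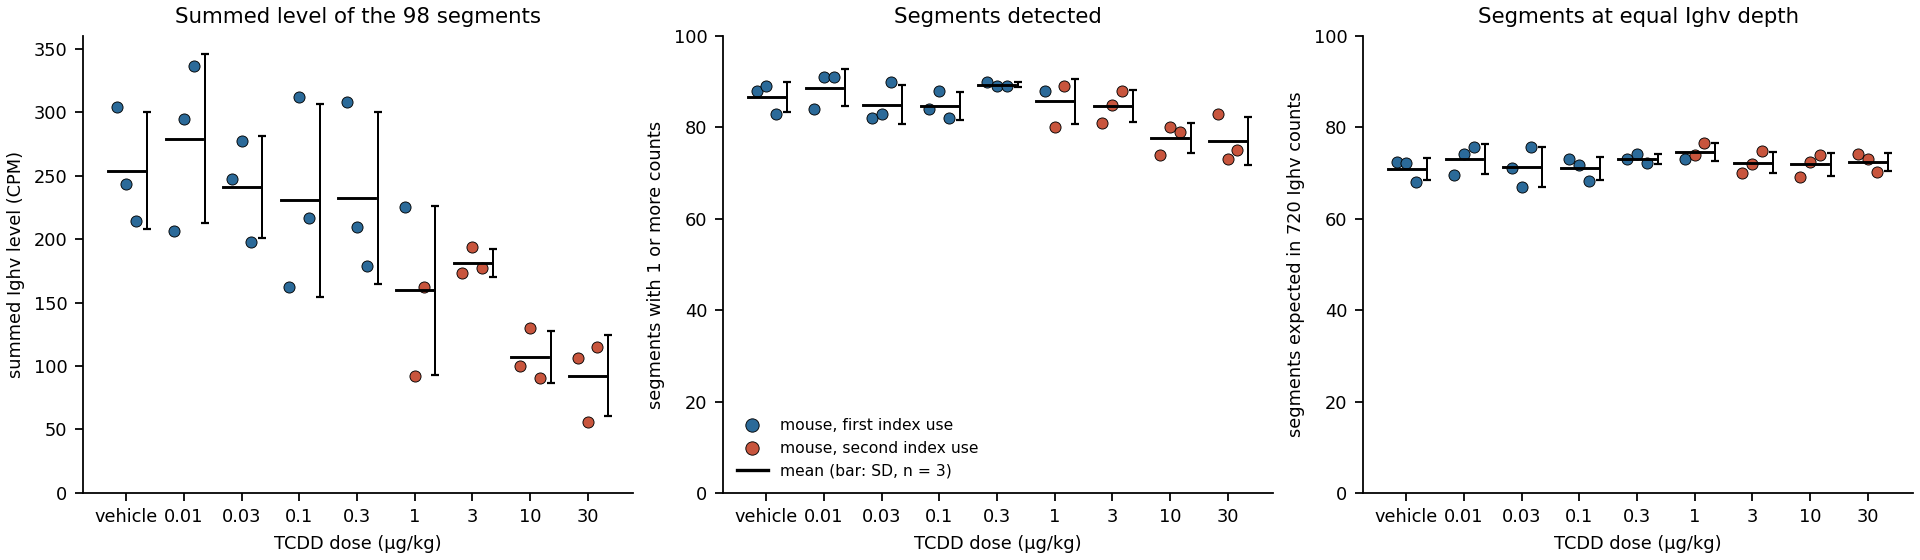
Left, summed level of the 98 *Ighv* segments (CPM) in each mouse by TCDD dose; middle, number of segments with 1 or more counts; right, number of segments expected if every mouse had 720 *Ighv* counts. Points are mice, coloured by library index use, horizontal lines are group means and bars SD (n = 3). The sums at 10 and 30 µg/kg (55.69 to 130.1 CPM) lie below the vehicle mice (214.1 to 304.3 CPM), while at equal *Ighv* depth the mice of all groups lie between 67.0 and 76.7 segments.

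*Igha*, *Jchain* and *Igkc* fell with TCDD as the *Ighv* sum did, and *Ighm* did not pass the test. *Igha* encodes the constant region of the IgA heavy chain, and its level was 1567, 1260 and 1166 CPM in vehicle mice. The mice at 30 µg/kg, with 573.0, 261.7 and 605.0 CPM, all lay below them. The log2 fold change of *Igha* was -1.47 ± 0.30 (SE) at 30 µg/kg (adjusted p = 0.00157 in the quasi-likelihood test of edgeR, Benjamini-Hochberg over 16741 genes) and -1.13 at 10 µg/kg (adjusted p = 0.0317 in the same test). *Jchain* encodes the J chain that links IgA monomers and *Igkc* the kappa light chain constant region. At 30 µg/kg they changed by -1.61 (adjusted p = 0.00195, edgeR) and -1.52 (adjusted p = 0.0017, edgeR) on the log2 scale. With index use as a covariate none of *Igha*, *Jchain* and *Igkc* was called (log2 fold changes -0.62, -0.57 and -0.66 at 30 µg/kg), and at 10 µg/kg leaving out 1 mouse ended the call in 5, 5 and 3 of 6 fits.

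*Ighm*, the constant region of IgM, was 35.2, 46.21 and 12.18 CPM in vehicle mice. Those at 30 µg/kg had 20.84, 39.91 and 36.31 CPM. The groups overlapped, and its log2 fold change of 0.05 ± 0.49 (SE; adjusted p = 0.955, edgeR) changed sign when only library size was used for scaling (-0.11). Its level varied 5.71-fold among the 27 mice without following the *Ighv* sum. The ratio of the *Ighv* sum to *Igha* was nearly constant by comparison, with 19.0 ± 0.6 *Ighv* counts per 100 *Igha* counts in vehicle mice (SD, n = 3) against 19.6 ± 1.5 at 30 µg/kg (SD, n = 3). Over all 27 mice this ratio ran from 15.97 to 22.63, a 1.42-fold span, while *Igha* itself spanned 6.31-fold.

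**Figure D2:**
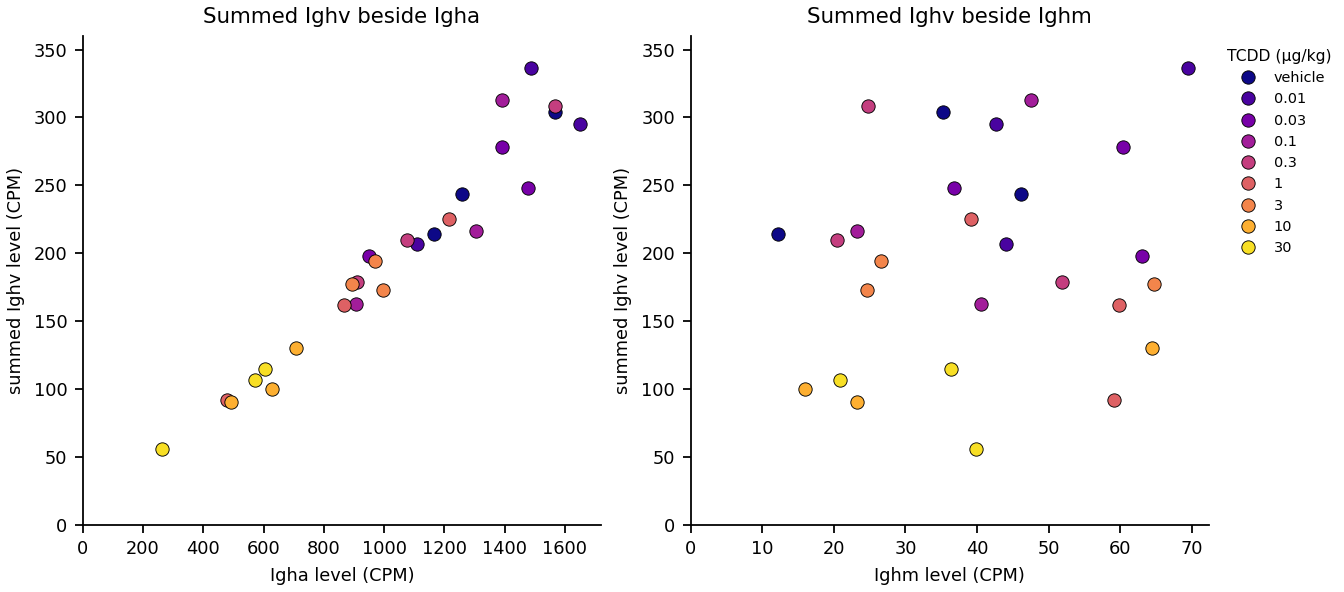
Summed *Ighv* level (CPM, vertical axes) against the level of *Igha* (left) and *Ighm* (right) in CPM, 1 point per mouse, coloured by TCDD dose. The points on the left fall along a line, with 15.97 to 22.63 *Ighv* counts per 100 *Igha* counts, and those on the right are scattered, with *Ighm* between 12.18 and 69.52 CPM at low and high *Ighv* sums alike.

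Some IgG constant regions and light chains fell as well. Of 7 heavy chain constant genes tested at 30 µg/kg, 4 were called lower (adjusted p no higher than 0.05 together with a change of 1.5-fold or more) and 0 higher, beside 3.98% of all genes called lower. They were *Igha*, *Ighg1*, *Ighg2b* and *Ighg2c*, the last 3 being IgG constant regions. *Ighg2b* fell from 40.2 ± 23.7 CPM (SD, n = 3) to 5.71 ± 1.04 CPM (SD, n = 3), a log2 fold change of -2.82 (adjusted p = 0.000369, edgeR). *Ighg1* and *Ighg2c* fell by 1.78 and 3.67 on the log2 scale. Of the 4 light chain constant genes, 3 were called lower (*Igkc*, *Iglc1* and *Iglc2*, with log2 fold changes of -1.52, -1.85 and -1.17). The 160 kappa variable genes of the tables summed to 212.0 ± 40.8 CPM in vehicle mice (SD, n = 3) against 71.3 ± 30.9 CPM at 30 µg/kg (SD, n = 3), 2.97-fold lower.

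Markers of other lymphoid and tissue cells were counted beside these genes. For the calls in this and the next paragraph, 9.4% of all genes were called at 30 µg/kg (3.98% lower) and 2.53% at 10 µg/kg. In lists this short, 0 or 1 call is near that share. Of 11 plasma cell genes tested, 3 were called lower at 30 µg/kg (*Jchain*, *Mzb1* with a log2 fold change of -1.43 and *Irf4* with -0.85) and 1 higher (*Ell2*, 0.77). The median over the 11 was -0.43, against 0.02 over all genes tested. None of 12 B cell genes was called at 10 or 30 µg/kg, their median was 0.14 at 30 µg/kg, and their summed level was 98.56 to 145.6 CPM there, within the vehicle range of 66.86 to 161.6 CPM. Of 5 germinal centre and class switch genes tested, *S1pr2* was called lower at 30 µg/kg (-1.44). *Rgs13* of the same list was called higher at 10 µg/kg (1.47). Of 8 lymphoid follicle genes tested, *Ccl20*, a chemokine of the epithelium over follicles, was called lower at 10 µg/kg (log2 fold change -2.998, adjusted p = 0.0112, edgeR). None was called at 30 µg/kg (median -0.21), where *Ccl20* was at -1.68 (adjusted p = 0.0504, edgeR). Of 9 genes of IgA induction and homing, *Tnfsf13b*, which encodes the B cell survival factor BAFF, was called lower (-1.02). None of 6 T cell genes was called (median -0.21). *Xbp1* of the plasma cell list, *Blnk* of the B cell list and *Tnfrsf11a* of the follicle list passed the adjusted p at 30 µg/kg. Their changes (log2 -0.37, -0.47 and -0.44) were under the fold change limit.

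The cell content of the scrapings also varied. The summed level of 9 smooth muscle and stromal markers ran from 89.05 to 243 CPM in vehicle mice. At 10 µg/kg it ran from 108.1 to 535.1 CPM and at 30 µg/kg from 79.79 to 430.3 CPM, with 0 of 9 called at either dose and medians of 1.78 and 1.14 (log2 fold change). The list was not uniform at 30 µg/kg. There 3 of the 9 were lower, all of them collagens (*Col1a1* -1.01, *Col1a2* -0.50 and *Col3a1* -0.91), while the smooth muscle genes ran from 0.98 to 1.51. Of 7 enterocyte markers, 1 was called higher at 30 µg/kg (*Sis*, sucrase-isomaltase, log2 fold change 1.40) and their sum was 9975 to 21420 CPM there, which overlaps the vehicle range. Of 5 AhR target genes, 4 were called higher at 30 µg/kg, and *Cyp1a1* which was no higher than 0.211 CPM in vehicle mice, rose to 1062, 1881 and 2279 CPM. The part of these cell types in the *Ighv* values was not tested.

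The *Ighv* counts of a mouse were spread over many segments. Between 73 and 91 of the 98 segments had at least 1 count, 52 segments were detected in all 27 mice and 12 in at most 13 mice. In vehicle mice 88, 89 and 83 segments were detected and at 30 µg/kg 83, 73 and 75. The means were 86.7 ± 3.2 and 77 ± 5.3 segments (SD, n = 3 each), and 1 mouse at 30 µg/kg reached the lowest vehicle value. At 10 µg/kg 74, 80 and 79 segments were detected, all below vehicle. This number follows the number of *Ighv* counts, which fell from 4322, 3322 and 3094 in vehicle mice to 1485, 720 and 1411 at 30 µg/kg. In the 720 counts of the mouse with fewest, 72.4, 72.2 and 68.0 segments would be expected in the vehicle mice and 74.2, 73.0 and 70.2 at 30 µg/kg, and the groups overlapped. The mice given 10 µg/kg also overlapped vehicle (69.2 to 74.0). At 1 µg/kg all 3 mice (73.0 to 76.7 segments) lay above all vehicle mice on this measure, the only group that did not overlap.

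The evenness of the segments overlapped between vehicle and the highest doses too. The inverse Simpson index, the number of equally abundant segments that would give the same concentration of counts, was 27.65, 28.42 and 24.96 in vehicle mice, and the mice at 30 µg/kg had 22.09, 29.44 and 18.39. It was lowest in 0.1 µg/kg replicate 2 (13.62) and highest in 0.03 µg/kg replicate 3 (31.45). At 0.3 µg/kg, where the *Ighv* sum overlapped vehicle, all 3 mice (24.0, 21.89 and 23.21) lay below all vehicle mice.

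*Ighv1-26* was the most abundant segment, and it held 8.05% of the 76594 *Ighv* counts. Per kilobase of annotated exon, its mean level was 45.6 CPM, followed by *Ighv3-6* at 28.5, *Ighv1-39* at 25.3, *Ighv1-15* at 24.4 and *Ighv1-55* at 23.8 CPM. The 12 segments with the highest mean CPM (*Ighv1-26*, *Ighv3-6*, *Ighv1-55*, *Ighv1-39*, *Ighv1-15*, *Ighv14-2*, *Ighv1-19*, *Ighv9-3*, *Ighv1-82*, *Ighv5-17*, *Ighv1-22* and *Ighv1-9*) held 47.6% of the counts and were detected in every mouse. *Ighv1-26* took the most counts in 13 of 27 mice, and 11 different segments were the leading one in at least 1 mouse.

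In vehicle mice the leading segments were *Ighv3-6*, *Ighv1-19* and *Ighv1-12*, a different one in each. *Ighv1-12* took 12.3% of the *Ighv* counts of vehicle replicate 3 (95% Wilson interval 11.2 to 13.5%, counting error only), against 3.19% and 1.69% in replicates 1 and 2. *Ighv1-82* took 21.8% (20.6 to 23.1%) in 0.1 µg/kg replicate 2, where its median share over the 27 mice was 1.61%. *Ighv1-64* took 17.9% (15.9 to 19.9%) in 30 µg/kg replicate 3, with a median share of 1.87%. Each of these peaks stood in 1 mouse and not in the other mice of the same group. Not every high share was confined in this way. *Ighv14-2* took 10.6% in 0.3 µg/kg replicate 1 and 12.8% in replicate 2, with a median share of 2.40%.

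Less abundant segments had single high mice as well. *Ighv1-5* was 36.98 CPM in 0.1 µg/kg replicate 2 with a median of 1.08 CPM over all mice, *Ighv10-1* 29.41 CPM in 0.01 µg/kg replicate 3 with a median of 1.22 CPM, and *Ighv10-3* 9.54% of the counts of 1 µg/kg replicate 3 with a median share of 0.894%. By contrast *Ighv1-26* held 4.91 to 13.4% of the counts of each mouse.

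**Figure D3:**
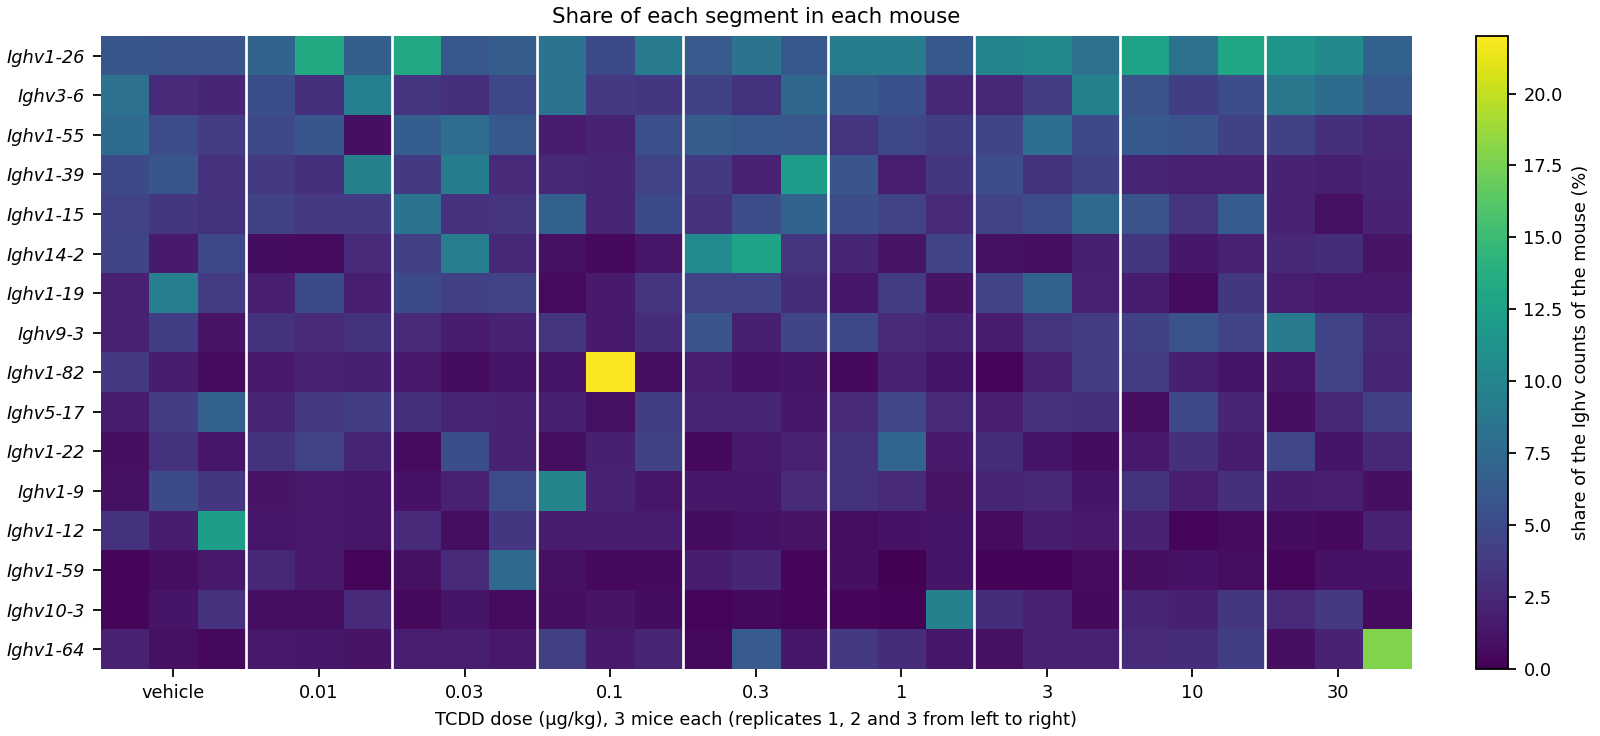
Share of the *Ighv* counts of each mouse (colour, %) taken by the 12 segments with the highest mean level and the 4 others that led in at least 1 mouse (rows), for 27 mice in order of TCDD dose (columns). *Ighv1-26* is present at 4.91 to 13.4% throughout, and isolated bright cells mark *Ighv1-82* (21.8%) in 1 mouse at 0.1 µg/kg and *Ighv1-64* (17.9%) in 1 mouse at 30 µg/kg.

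The spread between mice was therefore wide for single segments. Of the 98 segments, 77 passed edgeR's filter on low counts and could be tested, all of them functional variable genes. The 21 others were too low, and the values below say nothing of them. The biological coefficient of variation of the 77 had a median of 62.3% (30.3 to 147.1%), against 13.8% for all genes tested and 21.8% for 3408 other genes with mean levels of 0.834 to 3.58 CPM, a range that holds 39 of the 77.

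Single segments fell at 30 µg/kg, and with all 27 mice none was called higher. Of the 77, 17 were called lower and 0 higher, where 9.4% of all genes tested were called in either direction and 3.98% were called lower. Over all genes 908 were called higher and 666 lower, and with library size alone, which shifted all genes by -0.13 (log2), 604 higher and 1048 lower, with 22 segments lower. At 10 µg/kg 4 were called lower (2.53% of all genes called, 0.771% lower), and at 3 and at 1 µg/kg 1 each (1.11% and 0.591% of all genes called, 0.46% and 0.191% lower). At 0.01 to 0.3 µg/kg 0 segments were called by edgeR, as was 0% of all genes, with 8 to 14 of the 77 at an unadjusted p under 0.05. The share of all genes at that unadjusted p was not taken. DESeq2 called 0 segments at 0.01 to 0.3 µg/kg, but at 0.3 µg/kg only 5 segments had an adjusted p by DESeq2. The median log2 fold change of the 77 was 0.33, -0.08, -0.20, -0.23, -0.55, -0.64, -1.14 and -1.65 from 0.01 to 30 µg/kg, and that of all genes was between -0.01 and 0.02 at each dose. All comparisons share the 3 vehicle mice. At 30 µg/kg, 30 of the 77 segments had all 3 mice below all vehicle mice, against 13.3% of all genes, and at 10 µg/kg 19 of 77, against 11.8%. The number was 9 of 77 at 3 µg/kg (12.1% of all genes), at 1 µg/kg (10.2%) and at 0.3 µg/kg (8.49%), 7 at 0.1 µg/kg (6.68%), and 3 at 0.03 µg/kg (5.55%) and at 0.01 µg/kg (5.54%). Up to 3 µg/kg these numbers lay near the share of all genes.

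**Figure D4:**
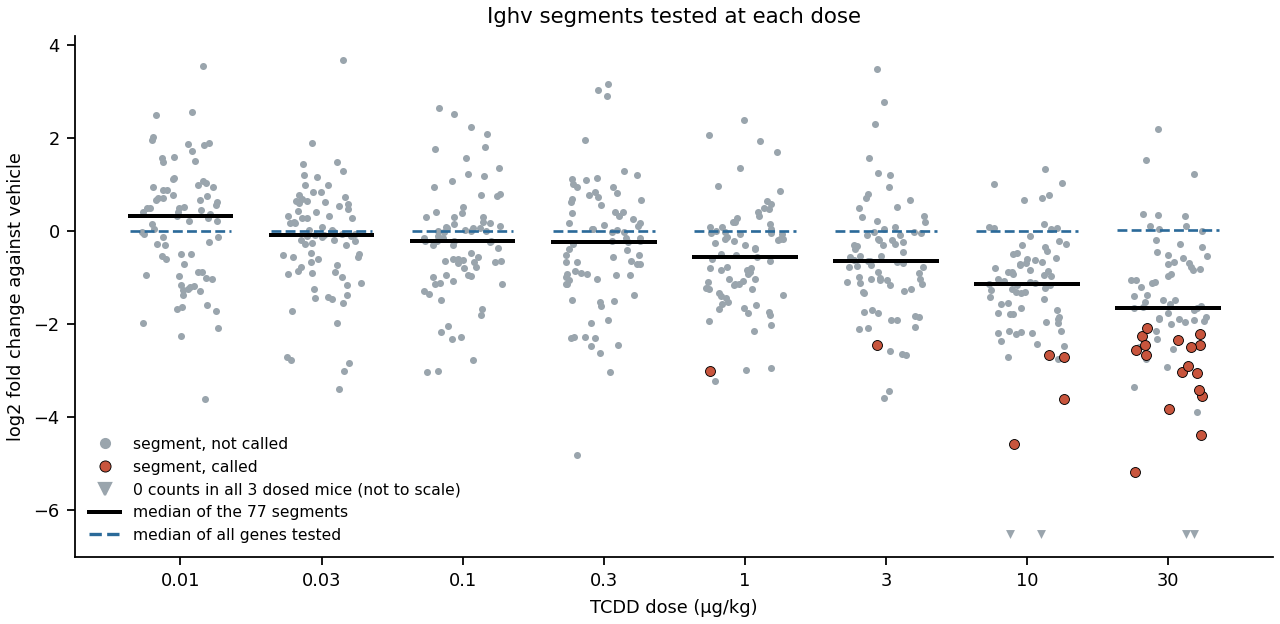
Log2 fold change against vehicle (vertical axis) of the 77 tested *Ighv* segments at each TCDD dose. Grey points are segments that were not called, red points those called, black lines the median of the 77 and dashed lines the median of all 16741 genes, and triangles mark 2 segments with 0 counts in all 3 mice at 10 and at 30 µg/kg. The median moves from 0.33 at 0.01 µg/kg to -1.65 at 30 µg/kg, and the 17 segments called at 30 µg/kg all lie below it.

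*Ighv1-12* was called lower at 1, 3, 10 and 30 µg/kg. Its level was 9.72, 4.11 and 26.3 CPM in vehicle mice. It was 1.86, 0.998 and 2.08 CPM in the mice given 1 µg/kg, and 1.18, 3.36 and 2.71 CPM in those given 3 µg/kg. The mice given 10 µg/kg had 2.195, 0.528 and 0.617 CPM, and those given 30 µg/kg 0.788, 0.309 and 2.36 CPM. All mice of these doses lay below all vehicle mice, and vehicle replicate 3 stood far above the other 2 with 66.2% of the 574 vehicle counts. The log2 fold changes were -2.997, -2.45, -3.61 and -3.55, with adjusted p values of 0.0162, 0.0275, 0.00169 and 0.000544 by edgeR. The calls at 1 and 3 µg/kg were lost without vehicle replicate 3 (log2 fold changes -2.05 and -1.50) and also, at each of these doses, when any 1 of its dosed mice was left out. Those at 10 and 30 µg/kg were kept in each of the 6 fits that left out 1 mouse.

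Of the 17 segments called at 30 µg/kg, 5 were called in each of the 6 fits that left out 1 of the mice compared. These were *Ighv1-12*, *Ighv1-15*, *Ighv1-19*, *Ighv1-55* and *Ighv1-77*. *Ighv1-55* fell from 23.5, 12.2 and 8.44 CPM to 4.52, 1.70 and 2.93 CPM (log2 fold change -2.26, adjusted p = 0.00627, edgeR). *Ighv1-15* fell from 13.6, 8.58 and 6.92 CPM to 2.37, 0.541 and 2.44 CPM (log2 fold change -2.44, adjusted p = 0.00116, edgeR). In both, every mouse at 30 µg/kg lay below every vehicle mouse, and the exact two-sided permutation test of 3 against 3 mice gave p = 0.1, the smallest it allows.

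*Ighv1-19* and *Ighv1-77* had more uneven vehicle mice. *Ighv1-19* was 6.20, 23.0 and 8.17 CPM in vehicle mice, against 1.94, 0.851 and 1.79 CPM at 30 µg/kg (log2 fold change -3.02, adjusted p = 0.00329, edgeR). *Ighv1-77* was 2.82, 2.05 and 5.40 CPM in vehicle mice, against 0.430, 0.541 and 0.244 CPM at 30 µg/kg (log2 fold change -3.05, adjusted p = 0.000333, edgeR). Neither segment overlapped between the groups, and both were also called at 10 µg/kg (-2.70 and -2.66). There *Ighv1-19* lost its call in 3 of 6 fits that left out 1 mouse (without vehicle replicate 2 and without 10 µg/kg replicates 1 and 2) and *Ighv1-77* in 0.

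The other 12 were *Ighv1-34*, *Ighv1-39*, *Ighv1-4*, *Ighv1-42*, *Ighv1-66*, *Ighv1-75*, *Ighv1-9*, *Ighv14-2*, *Ighv2-3*, *Ighv5-17*, *Ighv7-1* and *Ighv9-2*, and each lost its call in at least 1 such fit. *Ighv7-1* held 10, 114 and 4 counts in vehicle mice, against 1, 0 and 2 at 30 µg/kg, and its call was lost without vehicle replicate 2. *Ighv9-2* held 42, 6 and 4 counts in vehicle mice, against 1, 1 and 0 at 30 µg/kg, and *Ighv2-3* 2, 10 and 26 against 2, 1 and 0. For these 3 segments the dosed group held at most 3 counts in all, so no fold change is given. In 11 of the 17 called segments, 1 vehicle mouse held more of the counts than the other 2 together. Leaving out 30 µg/kg replicate 2, the mouse with the fewest *Ighv* counts, left 6 of the 17 called, and leaving out vehicle replicate 1 left 11. Without 30 µg/kg replicate 2, *Ighv3-5*, which was too low to be tested with all mice, was called higher (log2 fold change 3.24).

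Among these 12, *Ighv1-39* fell from 14.8, 14.4 and 6.71 CPM to 2.37, 1.08 and 2.69 CPM (log2 fold change -2.55), with no overlap. *Ighv14-2* fell from 14.0, 3.96 and 10.2 CPM to 2.58, 1.62 and 1.303 CPM (-2.34), also without overlap. It reached 32.8 and 26.9 CPM in 2 mice at 0.3 µg/kg and 26.2 CPM in 1 at 0.03 µg/kg, above every vehicle mouse.

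The segment that led in most mice was not among the called ones at any dose. *Ighv1-26* was 18.0, 14.0 and 12.4 CPM in vehicle mice, against 12.2, 5.88 and 7.81 CPM at 30 µg/kg. The dosed mice all lay below the vehicle mice, by a small margin, and the log2 fold change was -0.77 ± 0.38 (SE; adjusted p = 0.165, edgeR). Its slope over dose rank, described below, was -0.12 per step (adjusted p = 0.0138, edgeR). As a share of the *Ighv* counts, it was 5.92, 5.75 and 5.79% in vehicle mice, against 11.4, 10.6 and 6.80% at 30 µg/kg, and all 3 dosed mice lay above the vehicle mice. *Ighv3-6* was 25.1, 6.46 and 5.05 CPM in vehicle mice, against 9.38, 4.33 and 6.92 CPM at 30 µg/kg, with overlap (log2 fold change -0.82, adjusted p = 0.352, edgeR), and its sign turned without vehicle replicate 1 (0.26). *Ighv9-3* was 6.62, 9.90 and 2.56 CPM against 9.60, 2.47 and 2.93 CPM (adjusted p = 0.739, edgeR), which overlap.

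A slope over the rank of the dose (vehicle lowest, 30 µg/kg highest) used all 27 mice. It was negative in 71 of the 77 segments, and 32 passed an adjusted p of 0.05, all with lower levels at higher doses, where 26.2% of all genes passed and 12.8% with a negative slope. *Ighv1-12* had the slope with the smallest p, -0.41 per dose step on the log2 scale (adjusted p = 3.52e-06, edgeR), and *Ighv1-77* the next, -0.28 (adjusted p = 5.40e-05, edgeR). In the test of any difference among the 9 groups 21 of 77 passed, against 9.53% of all genes. Within the 16 mice of the first index use 2 of 89 segments passed the slope test, both with a negative slope (0.144% of all genes passed, 0.104% with a negative slope), and within the 11 of the second 1 of 63, also negative (1.44% and 0.426%).

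Index use was set apart from dose in 1 further comparison, between 30 and 3 µg/kg, whose 6 mice all had second-use indexes. The 77 segments had a median log2 difference of -0.87, against 0.01 for all genes tested. Of the 77, 62 were lower at 30 µg/kg and 20 had an unadjusted p under 0.05, counts whose shares over all genes were not taken. Only *Ighv1-15* was called (log2 difference -2.53, adjusted p = 0.0083, edgeR), where 0.89% of all genes were called and 0.245% lower. Its level was 7.70, 9.86 and 13.3 CPM at 3 µg/kg, above all 3 mice at 30 µg/kg and overlapping vehicle. *Igha* differed by -0.99 (adjusted p = 0.0992, edgeR), *Jchain* by -1.16 (adjusted p = 0.0853, edgeR) and *Igkc* by -1.16 (adjusted p = 0.0637, edgeR), none past the threshold, and *Ighm* by -0.26 (adjusted p = 0.862, edgeR). With index use as a covariate 0 of the 77 segments were called at 3, 10 or 30 µg/kg, in a fit whose index term rests on the 3 mice at 1 µg/kg. At 1 µg/kg that fit called 1 segment higher and 0 lower, against 0 higher and 1 lower without the covariate. Of all 16741 genes it called 31 there, 22 of them higher.

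The lower level at 30 µg/kg was seen along the whole array. The array was divided into 3 stretches of equal length by the distance from *Ighj1*, a joining segment. The 38 segments in the nearest stretch summed to 72.3 ± 20.6 CPM (SD, n = 3) in the vehicle group, against 32.4 ± 10.6 CPM (SD, n = 3) with 30 µg/kg. The 34 in the middle stretch summed to 112.9 ± 11.6 and 32.9 ± 12 CPM, and the 26 in the farthest stretch to 68.9 ± 20.2 and 27.1 ± 16.4 CPM. The called segments numbered 5 of 31 tested, 8 of 25 and 4 of 21 in the nearest, middle and farthest stretch, where 3.98% of all genes were called lower. The middle stretch held 38.3 to 50.2% of the *Ighv* counts in vehicle mice, against 30.3 to 41.1% at 30 µg/kg, ranges that overlap.

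**Figure D5:**
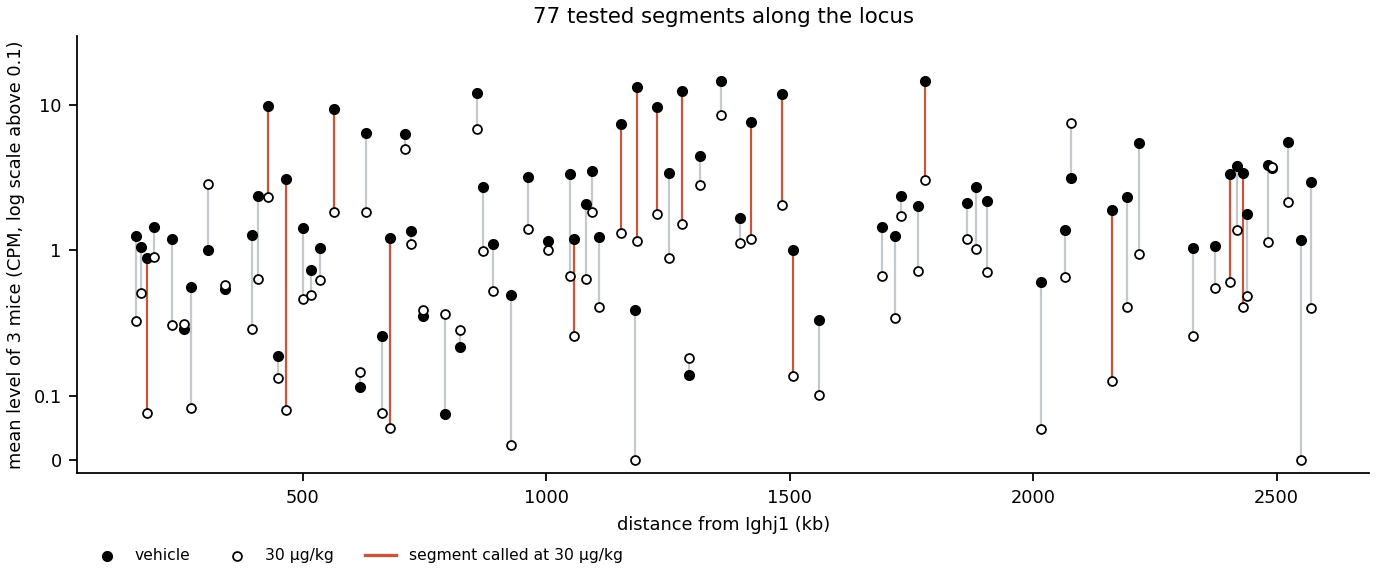
Mean level (CPM, n = 3, log scale above 0.1) of the 77 tested segments in vehicle mice (filled) and at 30 µg/kg TCDD (open) against the distance of the segment from *Ighj1* (kb). Lines join the 2 values of a segment and are red for the 17 called lower. Called segments lie in each stretch of the array (5, 8 and 4 from nearest to farthest, beside 3.98% of all genes called lower), between segments that were not called.

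By family, family 1 held 64.3 ± 2.5% of the *Ighv* counts in vehicle mice, against 56.3 ± 6.3% at 30 µg/kg (SD, n = 3 each; 62.7 to 67.2% and 52.4 to 63.5%), and 12 of its 40 tested segments were called. Of all genes tested, 3.98% were called lower at 30 µg/kg. Family 3 held 5.36 ± 3.53% and 10.2 ± 1.9% (SD, n = 3 each; 3.30 to 9.44% and 8.22 to 11.9%), with 0 of 4 tested segments called. In both the mice of the 2 groups overlapped. Family 5 held 7.63 ± 1.97 and 8.92 ± 0.93%, family 14 6.76 ± 3.82 and 5.06 ± 0.87%, and family 9 4.16 ± 1.70 and 6.5 ± 2.94% (SD, n = 3 each), with 1 segment called in each. The summed CPM of these 5 families was lower at 30 µg/kg than in vehicle, by 1.62 (family 1), 0.70 (family 3), 1.22 (family 5), 1.97 (family 14) and 0.79 (family 9) on the log2 scale.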

How the data were processed

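RNA-Seq of ileal epithelium scrapings from 27 mice was analysed. For each mouse the authors deposited a table of raw, unnormalized read counts by Ensembl gene. The submitters' processing notes name Trimmomatic 0.33, TopHat2 2.1.0, SAMtools 1.2.0 and HTSeq 0.6.1, and the study aligned reads to GRCm38 (Ensembl release 81). The counting options, including strand, are not given in the sources used here. Rows that name no gene (44.5 to 49.5% of uniquely aligned reads matched no feature and 0.61 to 1.02% were ambiguous) were left out. Reads that span the joint to a diversity segment, or that carry many somatic mutations, may align less often, which was not tested.

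Members and marker lists were chosen with earlier results of these data known. Genes were tested with edgeR 4.0.16 in R 4.3.3 (filterByExpr, TMM, quasi-likelihood fit of 9 groups, Benjamini-Hochberg adjustment over 16741 genes within each comparison), called where the adjusted p was no higher than 0.05 and the change 1.5-fold or more. The slope and the test of any difference used the adjusted p alone. The scripts were tested on simulated data. Sums over segments, numbers of segments and evenness were described without a test. Named segments were the 12 with the highest mean CPM, those leading in a mouse, those called (the 10 with the largest fold changes at 30 µg/kg where there were more, here together with all 17 called at 30 µg/kg), and those next to the count minimum; *Ighv1-5*, *Ighv10-1* and the pseudogenes were named after their values were seen. A group at 0 counts, or at most 3, was given no fold change. Alternatives were DESeq2 1.42.0, other scalings and filters, 6-mouse fits, an index covariate and leaving out mice. The comparison of 30 with 3 µg/kg was added after seeing the data. No pair of mice of a dose agreed within sampling noise (chi-square over genes 6.99 to 74.3 per degree of freedom). Python 3.11.15, numpy 2.4.6, pandas 2.3.3, scipy 1.17.1 and matplotlib 3.10.9 were used. Intervals are Wilson 95% intervals and cover counting error only. The p-values of edgeR set a difference against a spread between mice that is estimated over all 9 groups and with the help of other genes. That spread need not be the one of the mice compared, and an effect of cage is not separated from dose.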

Additional observations from a re-analysis of the deposited data

How the results depend on the processing

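The summed *Ighv* level kept its direction at 1 to 30 µg/kg under every scaling, choice of segments and summary tried, with a log2 ratio to vehicle of -1.58 to -1.20 at the highest dose and -1.29 to -1.24 at 10 µg/kg. With 1 mouse left out it ran from -1.65 to -1.20 at 30, -1.41 to -1.10 at 10, -0.59 to -0.33 at 3 and -0.998 to -0.39 at 1 µg/kg. The number of detected segments did depend on depth. As detected, its means of 85.7, 84.7, 77.7 and 77 segments at 1, 3, 10 and 30 µg/kg were below the 86.7 of vehicle. At equal *Ighv* counts the direction turned, and the means were above vehicle by 3.69, 1.42, 1.00 and 1.58 segments. When 3 counts were asked for, the mean at 0.01 µg/kg was above vehicle by 6.0. Evenness at 0.3 µg/kg differed by -0.11 (log2) by Shannon entropy.

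Segments called at 30 µg/kg numbered 7 to 19 with 1 mouse left out, 0 with index use as a covariate and 1 against 3 µg/kg. At 10 µg/kg they numbered 2 to 4 with 1 mouse left out (2 without 10 µg/kg replicate 1), 12 without a filter on low counts, 7 in the fit of 6 mice, 0 with the index covariate and 7 by DESeq2. At 3 µg/kg they numbered 0 to 1 with 1 mouse left out, 4 without the filter, 3 in the fit of 6 mice and 0 with the index covariate. At 1 µg/kg they numbered 0 to 2 with 1 mouse left out, 4 without the filter and 0 in the fit of 6 mice. DESeq2 called 2 at 1 µg/kg, where only 20 segments had an adjusted p. The fit with the index covariate called 1 segment at 1 µg/kg, which was higher than vehicle and not lower. At 0.3 µg/kg 3 were called without the filter. In the slope test 1 passed with the index covariate, 2 in the first index use and 1 in the second. In the test of any difference 53 passed without the filter, 1 with the index covariate and 35 by DESeq2. Apart from the fits of fewer mice and the fit without a filter, which tests more genes, the cause of these shifts was not tested.

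Over all genes, calls at 30 µg/kg numbered 878 to 2508 with 1 mouse left out, 2976 without a fold change limit, 667 in the fit of 6 mice, 482 with the index covariate and 149 against 3 µg/kg. At 10 µg/kg they were 208 to 450 with 1 mouse left out, 636 without the limit and 48 with the index covariate. At 3 µg/kg they were 67 to 225 with 1 mouse left out, 308 without the filter, 285 without the limit, 344 in the fit of 6 mice and 6 with the index covariate. At 1 µg/kg they were 12 to 107 with 1 mouse left out, 169 without the filter, 151 without the limit, 31 with the index covariate and 167 by DESeq2. At 0.3 µg/kg they were 0 to 1 with 1 mouse left out, 1 with library size, 1 with the upper quartile, 31 without the filter, 3 in the fit of 6 mice and 18 by DESeq2. At 0.1 µg/kg they were 0 to 1 with 1 mouse left out, 8 without the filter and 4 by DESeq2. At 0.03 µg/kg 2 were called in the fit of 6 mice. At 0.01 µg/kg they were 0 to 1 with 1 mouse left out, 3 without the filter and 3 by DESeq2.

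At 30 µg/kg the index covariate turned the log2 fold changes of *Ighv1-26* (0.40), *Ighv3-6* (0.77), *Ighv9-3* (1.46), *Ighv1-22* (0.060) and *Ighm* (-0.55), and that of *Ighm* at 10 µg/kg (-0.44). None of these was called. Leaving out a vehicle mouse turned *Ighv3-6* (0.26, without replicate 1), *Ighv1-22* (0.0055, without replicate 2; range with 1 mouse left out -1.38 to 0.0055), *Ighv9-3* (0.12, without replicate 2; range -1.26 to 0.12) and *Ighm* (-0.33 at 30 and -0.22 at 10 µg/kg, without replicate 3). *Ighm* also turned with library size only (-0.11 at 30 µg/kg), without 30 µg/kg replicate 2 (-0.13) or 3 (-0.04), and without 10 µg/kg replicate 2 (-0.66), and with 1 mouse left out it ran from -0.66 to 0.56 at 10 and -0.33 to 0.42 at 30 µg/kg. The index covariate ended the calls of *Igha*, *Jchain* and *Igkc* at 10 and 30 µg/kg (log2 fold changes -0.62, -0.57 and -0.66 at 30 µg/kg). Leaving out single mice ended those of *Igha* (5 of 6 fits), *Jchain* (5 of 6) and *Igkc* (3 of 6) at 10 µg/kg. Replicate numbers only name mice. No paired analysis was possible because no label ties a mouse of one dose to a mouse of another. Segments with few counts could not be tested, and 21 of the 98 were left without a value.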
